A study of Xenopus laevis with 4 samples.

Results

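The genes described here encode the framework that embryonic cells crawl on and the receptors that grip it: collagens, laminins, nidogens, fibronectin, fibrillins, integrins, the membrane proteoglycans syndecans and glypicans, and the hyaluronan synthases. They were chosen by gene symbol alone, without regard to their values, and 76 of the 21531 genes in the table matched. The African clawed frog Xenopus laevis is allotetraploid and carries many genes as a pair of homeologs, written .L and .S, so the 76 genes make up 52 gene families, of which 24 were present as both homeologs. By family there were 22 collagens, 11 laminin chains, 3 nidogens, 2 fibronectins, 3 fibrillins, 15 integrin chains, 7 syndecans, 8 glypicans and 5 hyaluronan synthases. RNA was sequenced from ventral mesoderm of gastrulating embryos in 2 control and 2 sox8 CRISPR libraries. Control embryos had been injected with mRNA of Cas7-11, an enzyme that cuts RNA at sites set by a guide, without guides, and sox8 CRISPR embryos with the same mRNA and guides against sox8, a transcription factor gene. All 4 libraries therefore carry Cas7-11, no uninjected library was compared, and the guides lower the transcript while the gene itself is left whole. The labels number the libraries of each group as embryos 1 and 2, and nothing further says how many explants were pooled for each.

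Fibronectin is laid down as fibrils along the roof of the blastocoel of the amphibian gastrula, and mesoderm cells use integrin α5β1 to bind it as they migrate and rearrange. Laminins, type IV collagens, nidogens and perlecan build basement membranes, fibrillins form microfibrils, and hyaluronan is a large hydrated sugar polymer made at the cell surface. Syndecans and glypicans carry heparan sulfate chains: in Xenopus, syndecan-4 takes part in adhesion to fibronectin and in noncanonical Wnt signalling, and glypican-4 is needed for convergent extension.

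The libraries held 18189895 to 24108577 reads on genes, and 1 read was worth between 0.625 and 1.56 normalized counts. The deposited values are read counts divided by a size factor per library, which makes a gene comparable between libraries, whereas different genes are not compared in level here because a longer transcript yields more reads. For the guides the authors selected sequences of both homeologs of sox8. sox8.L had 508 and 927 normalized counts in the controls, against 26.9 and 25.4 with the sox8 guides (log2 fold change -4.66 ± 0.97, limma adjusted p = 0.0436). Its homeolog sox8.S had 14.1 and 43.7 against 134 and 0, so the groups overlapped and a lower level was not shown for it (log2 fold change -1.16 ± 2.15, limma adjusted p = 0.925). Of 28 ventral mesoderm marker genes, 26 lay below both controls in each sox8 CRISPR library, and they summed to 73747 and 90614 normalized counts in the controls and to 9852 and 23050 in the sox8 CRISPR libraries, so these defining markers of the labelled tissue were abundant in the controls. Of 27 organizer and axial mesoderm markers, 17 lay above both controls and 1 below, with sums of 9364 and 5962 against 90610 and 16063. Most of the control sums came from pnhd.L and pnhd.S, whose log2 fold changes were negative, as were those of most ventral markers. These sums therefore say little about the other organizer markers in the controls. pnhd.L, the 1 below, had 5850 and 3007 against 898 and 2455, and pnhd.S, overlapping, had 2271 and 1386 against 299 and 1510. Of 21 neural plate markers 13 lay above and 3 below (61.9% and 14.3%), and of 24 pan-mesoderm markers 11 and 4 (45.8% and 16.7%). Of 24 epidermis markers 5 and 5 did (20.8% each), and of 17 endoderm markers 2 and 4 (11.8% and 23.5%). Over all genes the shares were 17% above and 19.1% below, to which those of the epidermis and endoderm markers were near. At an unadjusted limma p under 0.05 were 8.33% of epidermis and 35.3% of endoderm markers, against 6.79% of all genes. Single genes of both lists differed strongly. The epidermis marker dlx3.S, among the 5 below, had 439 and 360 against 11.2 and 0. The endoderm marker a2m.S, among the 2 above, had 20.3 and 21.5 against 1330 and 266. mix1.S, among the 4 endoderm markers below, had 239 and 482 against 104 and 67.7. The median log2 fold change of the endoderm markers was -1.19. The chordin genes chrd.1.L and chrd.2.L, defining organizer genes, were listed at 0 in both controls, and chrd.1.S at 0 and 0.795. They passed the authors' filter, which dropped genes with a mean under 5, only through their sox8 CRISPR reads. So did other organizer markers, such as shh.L and otx2.L, while some ventral markers, such as gata2.S, passed it only through the controls. The side of these genes was thus largely fixed in advance. The part of these tissue differences in the matrix gene values was not tested, and in bulk tissue fewer cells of a type cannot be told apart from less RNA per cell.

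Across the 76 genes, 38 had a log2 fold change above 0 and 38 below, with a median of -0.01 beside -0.16 for all genes. In both sox8 CRISPR libraries 18 genes lay above both controls, 23.7% of the set, against 17% of all genes. A further 13 lay below both controls, 17.1%, against 19.1% of all genes, and in the remaining 45 genes the groups overlapped. Log2 fold changes were fitted on log2(normalized count + 1), which compresses differences among genes with few reads. A value after ± is the standard error. With limma, fitted over all genes and called at an adjusted p under 0.05 and a log2 fold change beyond 0.58, 0 of the 76 genes passed, against 0.334% of all genes. At an unadjusted p under 0.05 there were 7 genes, 9.21%, against 6.79% of all genes: lamb1.S, fbn3.L, itga3.L, itga4.S, sdc1.L, sdc4.S and has3.S. On the recovered reads, edgeR's quasi-likelihood test called 0, against 0.506% of all genes, with 9 at an unadjusted p under 0.05, beside 6.58% of all genes. DESeq2 called 2 of the 57 genes to which it gave an adjusted p, 3.51%, against 2.33% of all such genes, and these were sdc1.L and itga4.S.

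**Figure D1:**
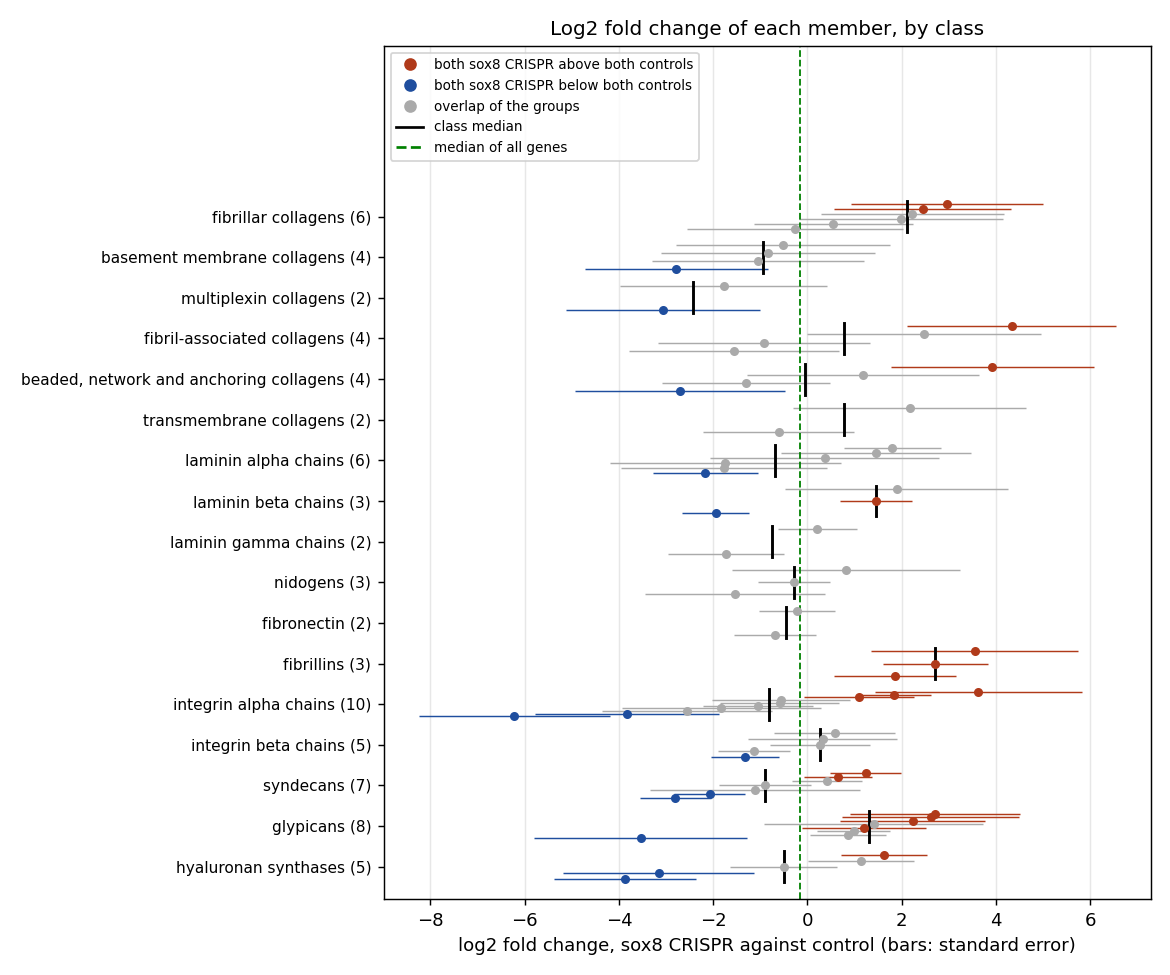
Log2 fold change of each of the 76 genes (horizontal axis, sox8 CRISPR against control, with its standard error as a bar), grouped by class with the number of genes in brackets. Black ticks are class medians and the dashed line is the median of all genes at -0.16. Fibrillins lie wholly to the right, whereas integrin alpha chains, syndecans and hyaluronan synthases hold genes on both sides.

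The spread between replicates was wide for these genes. Between the controls 50 of the 76 stood over 2-fold apart after adding 1 to each normalized count, 65.8% against 49.8% of all genes, and between the sox8 CRISPR libraries 60 did, 78.9% against 61.1%. Control replicate 2 exceeded control replicate 1 in 50 genes, and sox8 CRISPR replicate 1 exceeded replicate 2 in 52. The set summed to 24491 and 87414 normalized counts in the controls, against 50519 and 31690 with the sox8 guides, so both sox8 CRISPR sums fell inside the range of the controls. Much of that range came from the single gene has1.S: without it the sums were 19994 and 40642 against 31390 and 26208. Listed at 0 were 10 and 5 of the genes in the controls and 8 and 16 in the sox8 CRISPR libraries. At this depth 36 genes had a mean of 50 or more normalized counts over the 4 libraries, of which 10 lay above and 7 below both controls, 27.8% and 19.4% against 19.4% and 19.2% of all genes with such a mean, and 15 had a mean under 10.

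**Figure D2:**
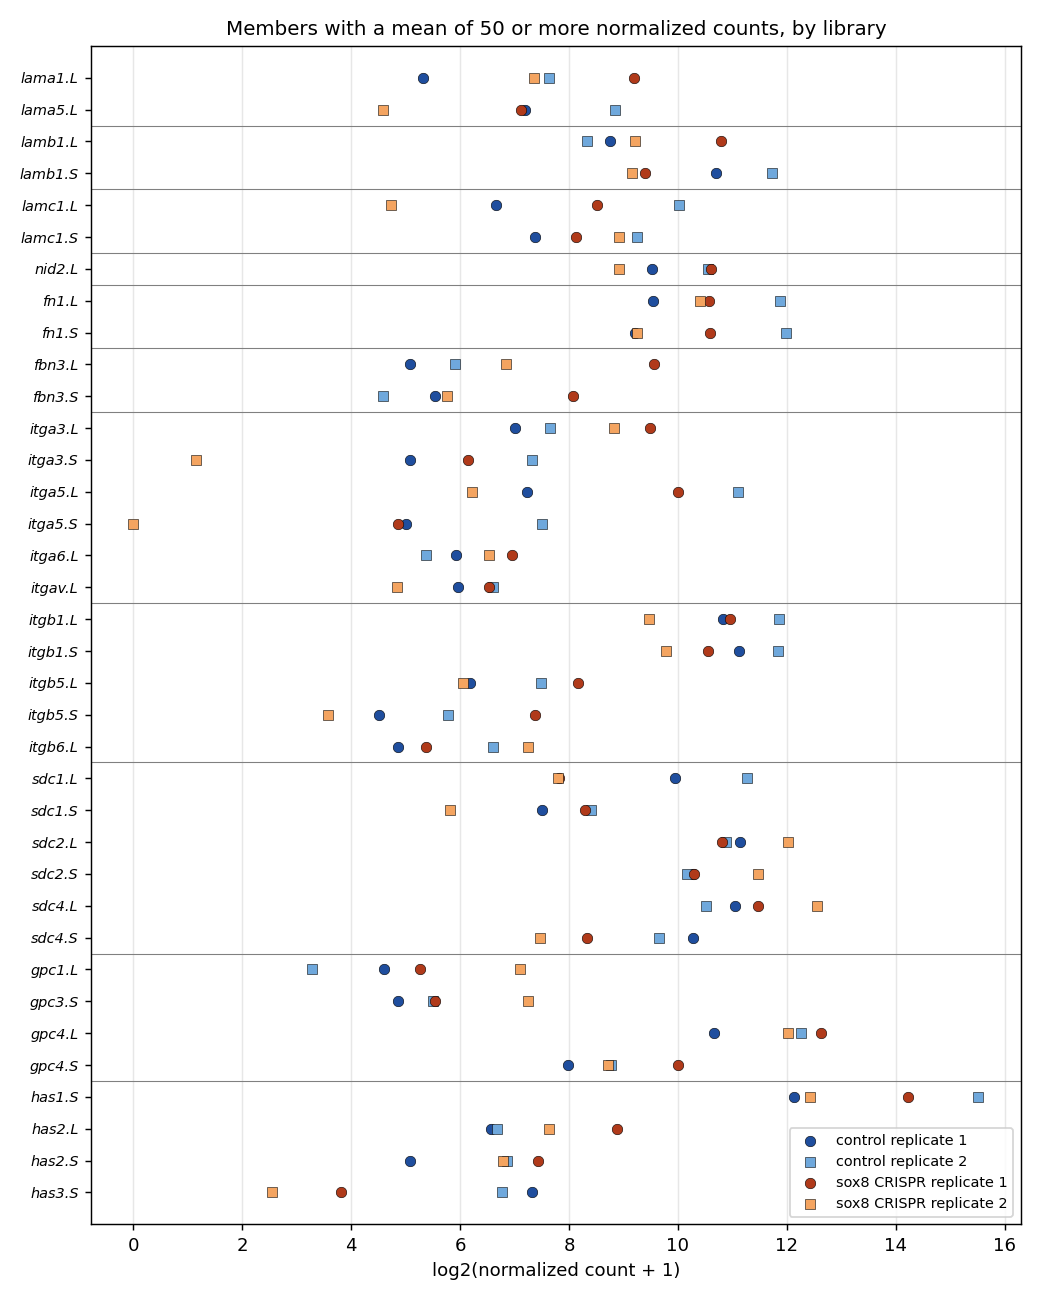
Expression of the 36 genes with a mean of 50 or more normalized counts, as log2(normalized count + 1) on the horizontal axis, with 1 point for each of the 4 libraries and lines between classes. In sdc1.L and has3.S both sox8 CRISPR points lie to the left of both control points, and in itga3.L and fbn3.L to the right, whereas for fn1.L and fn1.S they lie between the controls or level with the lower one.

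Fibronectin, the ligand of integrin α5β1 on the blastocoel roof, did not separate the groups. fn1.L had 745 and 3765 normalized counts in the controls, replicate 1 first here and throughout, and 1525 and 1351 with the sox8 guides. Both sox8 CRISPR values thus lay between the controls, with a log2 fold change of -0.22 (standard error 0.80, adjusted p = 0.964 by limma). For fn1.S, on chromosome 9_10S (74022723 to 74066903 in assembly v10.1), the values were 592 and 4047 against 1533 and 603, again inside the range of the controls (log2 fold change -0.69 ± 0.86, limma adjusted p = 0.890). The controls alone differed severalfold for both homeologs, and without control replicate 2 the log2 fold changes were 0.95 for fn1.L and 0.70 for fn1.S.

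Among the β1, α5 and αv chains, which pair to bind fibronectin, itgb1.S and itga5.S lay below both controls and the other genes overlapped. The β1 chain is the common partner of many α chains. itgb1.L had 1808 and 3725 normalized counts in the controls, against 1989 and 706 with the sox8 guides (log2 fold change -1.13 ± 0.76, limma adjusted p = 0.821). itgb1.S had 2228 and 3666 against 1496 and 880, lower in both sox8 CRISPR libraries, with a log2 fold change of -1.32 (standard error 0.72, adjusted p = 0.783 by limma). Neither passed the test. With each library left out, the log2 fold change ran from -1.88 to -0.38 for itgb1.L and from -1.70 to -0.93 for itgb1.S. That itgb1.S stayed below 0 was fixed in advance, because its groups did not overlap.

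The α5 chain, which gives the fibronectin receptor its specificity, spanned a wider range than the β1 chain. itga5.L had 148 and 2187 normalized counts in the controls, against 1023 and 73.7 with the sox8 guides (log2 fold change -1.05 ± 1.18, limma adjusted p = 0.885). The highest and the lowest of these 4 values thus lay in different groups. itga5.S, on chromosome 2S from 136689443 to 136821633, had 31.2 and 180 against 28.1 and 0, so that both sox8 CRISPR values lay below both controls while the first was close to control replicate 1 (log2 fold change -3.83 ± 1.94, limma adjusted p = 0.762). The αv chain, which binds fibronectin and vitronectin, had 60.9 and 96.2 against 91.2 and 27.8 for itgav.L, overlapping (log2 fold change -0.59 ± 1.26, limma adjusted p = 0.937).

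Among the other integrins, the α4 chain binds fibronectin at a site of its own and also the cell adhesion molecule VCAM-1. itga4.S, on chromosome 9_10S from 70768019 to 70831313, had 46.8 and 115 normalized counts in the controls, from 30 and 145 reads, and was listed at 0 in both sox8 CRISPR libraries. Its mean was at least 29.5-fold lower there, counting 3 reads per library as the floor, equal to 1.87 and 3.63 normalized counts. The gene was picked out after its values were seen. limma gave an adjusted p of 0.399, and DESeq2 one of 0.00304, the lowest of 15 fits that reached up to 0.997. Its homeolog itga4.L had 18.7 and 23.1 against 36.9 and 0, so the pair shared the value of 0 in sox8 CRISPR replicate 2, where 3862 genes were at 0 against 667 to 1290 in the other libraries, but not in replicate 1.

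The laminin-binding α3 chain ran the other way for .L. itga3.L, on chromosome 9_10L from 4821529 to 4852836, had 128 and 200 normalized counts in the controls, against 718 and 453 with the sox8 guides, both above both controls (log2 fold change 1.83 ± 0.80, limma adjusted p = 0.691). Its log2 fold change lay between 1.50 and 2.16 with each library left out. itga3.S had 32.8 and 158 against 69.3 and 1.21, overlapping. The α6 chain, also a laminin receptor, had 59.3 and 40.5 against 122 and 91.9 for itga6.L and 48.4 and 41.3 against 20.6 and 43.5 for itga6.S. The collagen-binding α2 chain, itga2.L, had 0 and 3.18 against 89.9 and 6.04. Together, 3 of 10 α chains lay above both controls and 2 below, 30% and 20% against 17% and 19.1% of all genes. Their median log2 fold change was -0.82. Among them, itga2.L passed the authors' filter, which dropped genes with a mean under 5, only through sox8 CRISPR replicate 1. itga4.S passed it only through the controls, so the filter helped to fix the side of both genes. Of 5 β chains 0 lay above and 1 below, 0% and 20%. The β5 and β6 chains, which pair with αv, overlapped in all 3 genes, with log2 fold changes of 0.27 for itgb5.L, 0.32 for itgb5.S and 0.58 for itgb6.L.

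A laminin molecule is a trimer of an α, a β and a γ chain, and the set held 6, 3 and 2 genes of these kinds. The β1 chain separated the groups in opposite directions for its homeologs. lamb1.L, on chromosome 3L from 82336882 to 82370521, had 431 and 321 normalized counts in the controls, against 1772 and 593 with the sox8 guides (log2 fold change 1.46 ± 0.76, limma adjusted p = 0.766). lamb1.S, on chromosome 3S from 74042212 to 74075627, had 1665 and 3405 in the controls and 669 and 567 in the sox8 CRISPR libraries (log2 fold change -1.95 ± 0.71, limma adjusted p = 0.556). The .L values were all higher with the sox8 guides and the .S values all lower, without overlap in either. Summed over both homeologs the log2 fold change was -0.73 (standard error 0.74, adjusted p = 0.875 by limma).

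The other laminin chains were scattered. lama1.L, the α chain of the laminin of early embryos, had 39.0 and 196 normalized counts against 585 and 162, with control replicate 2 inside the sox8 CRISPR range (log2 fold change 1.80 ± 1.03, limma adjusted p = 0.795). lama5.L, an α chain widespread in later basement membranes, had 145 and 459 against 139 and 23.0, both sox8 CRISPR values lying below both controls though the first by little (log2 fold change -2.16 ± 1.11, limma adjusted p = 0.764). The γ1 chain, shared by most laminins, had 99.9 and 1041 against 364 and 25.4 for lamc1.L (log2 fold change -1.73 ± 1.23, limma adjusted p = 0.830) and 166 and 610 against 279 and 485 for lamc1.S (log2 fold change 0.21 ± 0.84, limma adjusted p = 0.969). Both γ1 homeologs overlapped. The epithelial chain gene lamb3.S had 0 and 20.7 against 135 and 1.21. The nidogens, which join the laminin and collagen IV networks, overlapped in all 3 genes: nid2.L had 736 and 1509 against 1558 and 483 (log2 fold change -0.28 ± 0.77, limma adjusted p = 0.953), and nid1.S had 3.12 and 0 against 11.9 and 0.

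Collagen genes drew few reads at this stage. None of the 22 collagen genes reached a mean of 50 normalized counts and 8 had a mean under 10, and together they summed to 239 and 377 normalized counts in the controls, against 515 and 441 with the sox8 guides. Both sox8 CRISPR sums were above both control sums. Of single genes 4 lay above both controls and 3 below, 18.2% and 13.6% against 17% and 19.1% of all genes. The median log2 fold change was -0.39. The 4 above, col5a1.L, col6a3.L, col24a1.L and col9a1.L, passed the authors' filter on the mean only through their sox8 CRISPR reads. Below, col4a2.L and col6a5.L passed it only through their control reads. The places of these genes were thus largely fixed in advance. The order of the sums rested on single genes. One was col9a1.L, at 0 and 1.59 in the controls and 148 and 6.04 with the sox8 guides. Without it the sum of sox8 CRISPR replicate 1 would not exceed that of control replicate 2. Another was col5a1.L, at 4.68 and 1.59 in the controls and 8.74 and 90.6 with the sox8 guides. Without that gene the sum of sox8 CRISPR replicate 2 would not exceed that of control replicate 2.

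Medians of the collagen classes moved with single libraries, and no collagen was called by limma, edgeR or DESeq2. The 6 fibrillar collagens, which assemble into the load-bearing fibrils of connective tissue, had a median log2 fold change of 2.11, with 5 of the 6 above 0, and of 0.071 without control replicate 2. col5a1.L, a minor chain that sets fibril diameter, had 4.68 and 1.59 normalized counts against 8.74 and 90.6, a ratio of summed reads of 13.9 with an exact 95% interval of 5.75 to 43.9 that covers counting error only. Most of that came from the single sox8 CRISPR replicate 2, and the homeolog col5a1.S had 12.49 and 2.38 against 30.6 and 0. The 4 type IV collagens of basement membranes all had a log2 fold change below 0, with a median of -0.94, which was 1.00 without sox8 CRISPR replicate 1. col4a2.L had 21.9 and 42.9 against 1.25 and 8.46, lower in both sox8 CRISPR libraries (log2 fold change -2.78 ± 1.95, limma adjusted p = 0.827), whereas its partner chain col4a1.S had 12.49 and 3.18 against 0 and 26.6, overlapping.

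Collagen XVIII, a basement membrane proteoglycan that releases endostatin, had 18.7 and 55.6 normalized counts in the controls, against 15.0 and 0 with the sox8 guides for col18a1.L, and 15.6 and 6.36 against 9.37 and 0 for col18a1.S. The first did not overlap (log2 fold change -3.06 ± 2.05, limma adjusted p = 0.821), and the second did. col9a1.L, a cartilage collagen also found in the embryonic notochord of other vertebrates, had 0 and 1.59 against 148 and 6.04, a ratio of 94.6 with a counting interval of 25.9 to 786. Nearly all of those reads were in sox8 CRISPR replicate 1, and only through that library did the gene pass the authors' filter on the mean. The organizer and axial mesoderm markers summed to 90610 in the same library, and a link between them and col9a1.L was not tested. The collagen VI chain gene col6a3.L had 1.56 and 0 against 10.6 and 49.6, and col24a1.L had 7.81 and 3.18 against 60.0 and 16.9. The groups overlapped for col26a1.L, at 28.1 and 58.0 against 81.8 and 2.42, and for the transmembrane collagen col13a1.L, at 12.49 and 117 against 23.7 and 26.6.

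Fibrillins were the only class with every gene above both controls in both sox8 CRISPR libraries, 3 of 3, where 17% of all genes did. Of these, fbn3.L and fbn3.S are homeologs of 1 gene. The third, fbn2.L, passed the authors' filter, which dropped genes with a mean under 5, only through its sox8 CRISPR reads. Its place above both controls was thus largely fixed in advance. fbn3.L, on chromosome 1L from 99251870 to 99385699, had 32.8 and 58.8 normalized counts in the controls, against 754 and 114 with the sox8 guides (log2 fold change 2.71 ± 1.11, limma adjusted p = 0.666). fbn3.S, on chromosome 1S from 82217271 to 82358804, had 45.3 and 23.1 against 270 and 53.2 (log2 fold change 1.86 ± 1.29, limma adjusted p = 0.824). For either homeolog sox8 CRISPR replicate 1 stood far above the rest and replicate 2 only modestly above the higher control. fbn2.L, a fibrillin of developing tissues, had 0 and 0.795 against 13.7 and 15.7, from 1 read in the controls together and 22 and 13 reads in the sox8 CRISPR libraries, a ratio of 27.4 with a counting interval of 4.60 to 1111. With fbn3.L and fbn3.S summed, the log2 fold change was 2.36 (standard error 0.98, adjusted p = 0.677 by limma).

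The syndecans, which act beside integrins as receptors for fibronectin and laminin, held the gene nearest to the threshold. sdc1.L, on chromosome 5L from 154550393 to 154597366, had 984 and 2463 normalized counts in the controls, against 224 and 221 with the sox8 guides. Both sox8 CRISPR values lay far below both controls and close to each other. The log2 fold change was -2.80 (standard error 0.75, adjusted p = 0.173 by limma), and it lay between -3.46 and -2.14 with each library left out. The adjusted p ranged from 0.00964 to 0.997 over 15 fits, of which DESeq2 and limma after quantile normalization passed the threshold. Its homeolog sdc1.S had 181 and 338 against 312 and 55.6, overlapping, and the sum of both gave a log2 fold change of -2.23 (standard error 0.74, adjusted p = 0.427 by limma).

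Syndecan-4 repeated the pattern of laminin β1. sdc4.L, on chromosome 9_10L from 3891770 to 3909408, had 2104 and 1454 normalized counts in the controls, against 2846 and 5989 with the sox8 guides (log2 fold change 1.24 ± 0.75, limma adjusted p = 0.806). sdc4.S, on chromosome 9_10S from 3689858 to 3707125, had 1242 and 804 against 319 and 175 (log2 fold change -2.07 ± 0.75, limma adjusted p = 0.539). Neither overlapped, .L being higher and .S lower with the sox8 guides, and the sum of both gave a log2 fold change of 0.68 (standard error 0.77). Syndecan-2, which in Xenopus takes part in left-right patterning, was nearly level except in sox8 CRISPR replicate 2: sdc2.L had 2247 and 1874 against 1801 and 4136, and sdc2.S had 1235 and 1152 against 1255 and 2816. The log2 fold changes were 0.41 (standard error 0.74, adjusted p = 0.923 by limma) and 0.66 (standard error 0.72, adjusted p = 0.885 by limma). Only sdc2.S of this pair lay above both controls, with sox8 CRISPR replicate 1 close to control replicate 1.

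Glypicans are held to the membrane by a lipid anchor and bind Wnt and BMP ligands. Their median log2 fold change was 1.31, beside -0.16 for all genes. The log2 fold change was above 0 in 7 of 8 glypican genes, against 9778 of all 21531 genes. Above both controls lay 4 of the 8, where 17% of all genes did, and 1 lay below, where 19.1% did. The 4 above were both homeologs of glypican-1 and of glypican-3. gpc1.L had 23.4 and 8.74 normalized counts in the controls against 37.5 and 135 (log2 fold change 2.23 ± 1.55, limma adjusted p = 0.824), and gpc1.S had 1.56 and 23.1 against 50.6 and 49.6. gpc3.L had 1.56 and 17.5 against 19.4 and 87.0, and gpc3.S 28.1 and 44.5 against 45.6 and 150. The margin to the higher control was small in sox8 CRISPR replicate 1 for both glypican-3 homeologs.

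Glypican-4, the member with a known part in convergent extension of the frog gastrula, overlapped in both homeologs. gpc4.L had 1610 and 4920 normalized counts against 6336 and 4127 (log2 fold change 0.86 ± 0.81, limma adjusted p = 0.865), and gpc4.S had 253 and 435 against 1028 and 421 (log2 fold change 0.99 ± 0.77, limma adjusted p = 0.849). For either homeolog, sox8 CRISPR replicate 1 was the highest of the 4 libraries and control replicate 1 the lowest. gpc5.L was the exception among the glypicans, with 10.9 and 10.3 in the controls and 0 in both sox8 CRISPR libraries, at least 3.87-fold lower. With 7 and 13 reads in the controls it lay at the limit of the authors' filter on the mean. It passed that filter only through the controls, so its place below them was largely fixed in advance.

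Hyaluronan synthases split by gene. has1.S, whose product was first found in Xenopus embryos, had 4498 and 46773 normalized counts in the controls, against 19129 and 5482 with the sox8 guides, so the controls spanned both sox8 CRISPR values (log2 fold change -0.50 ± 1.14, limma adjusted p = 0.939). has2.L, whose mouse ortholog makes the hyaluronan of the embryonic heart, had 93.7 and 101 against 467 and 197, above both controls in each (log2 fold change 1.63 ± 0.92, limma adjusted p = 0.789). has2.S had 32.8 and 115 against 171 and 109, overlapping (log2 fold change 1.13 ± 1.12, limma adjusted p = 0.871). has3.S, on chromosome 4S from 43174892 to 43187431, had 159 and 108 against 13.1 and 4.83, lower in both (log2 fold change -3.87 ± 1.50, limma adjusted p = 0.617). has3.L had 23.4 and 61.2 against 18.1 and 0, both sox8 CRISPR values below both controls though the first by little. The 0 was in sox8 CRISPR replicate 2, where 3862 genes were at 0. Its log2 fold change was -3.16 (standard error 2.03, adjusted p = 0.818 by limma), and from -5.28 to -1.03 with each library left out.

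**Figure D3:**
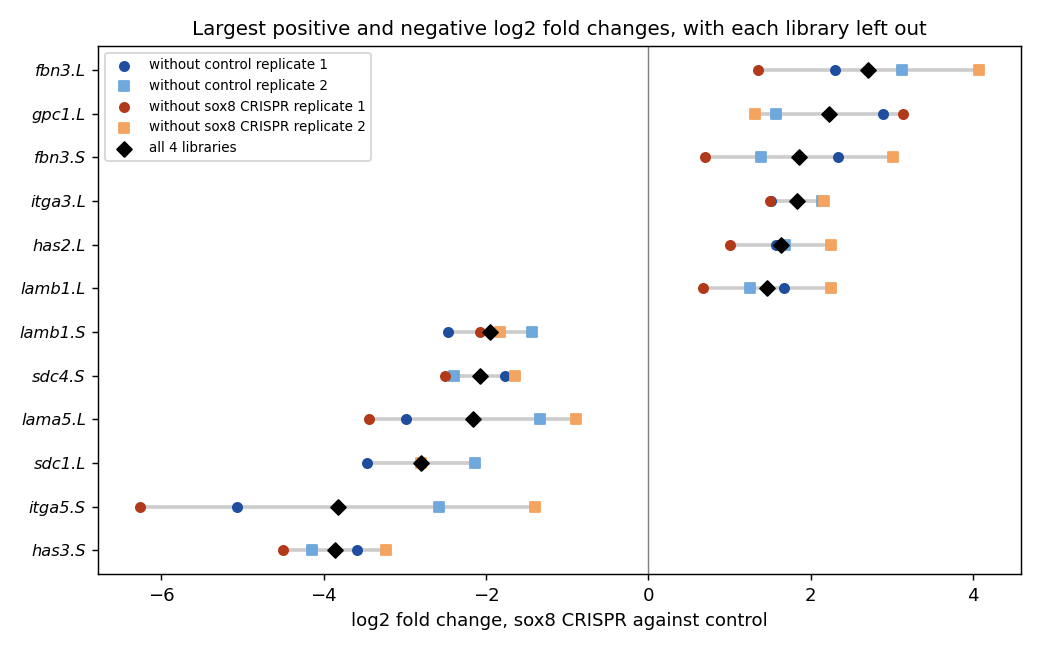
Log2 fold change of the 6 genes with the largest positive and the 6 with the largest negative value, among genes with a mean of 50 or more normalized counts and no overlap of the groups, with all 4 libraries (black diamonds) and with each library left out. All 12 stay on one side of 0, which choosing genes without overlap fixes in advance. The range is widest for itga5.S, from -6.26 to -1.39, and narrow for itga3.L, from 1.50 to 2.16.

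The homeologs of a pair were compared next, since laminin β1 and syndecan-4 lay on opposite sides of the controls. Of the 24 pairs, 16 had log2 fold changes of the same sign and 8 of opposite sign. Both homeologs lay above both controls in 3 pairs, fbn3, gpc1 and gpc3, and both lay below in 1, has3. Pairs of equal sign, or with both homeologs on one side, were not counted over the whole table, so these counts have no comparison. In 2 pairs, lamb1 and sdc4, one homeolog lay above and the other below, 8.33% of the pairs, against 3.14% of the 5640 pairs in the table. The counting can divide reads of near-identical homeologs wrongly, and how reads that match several genes were treated is not given in the sources used here.

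**Figure D4:**
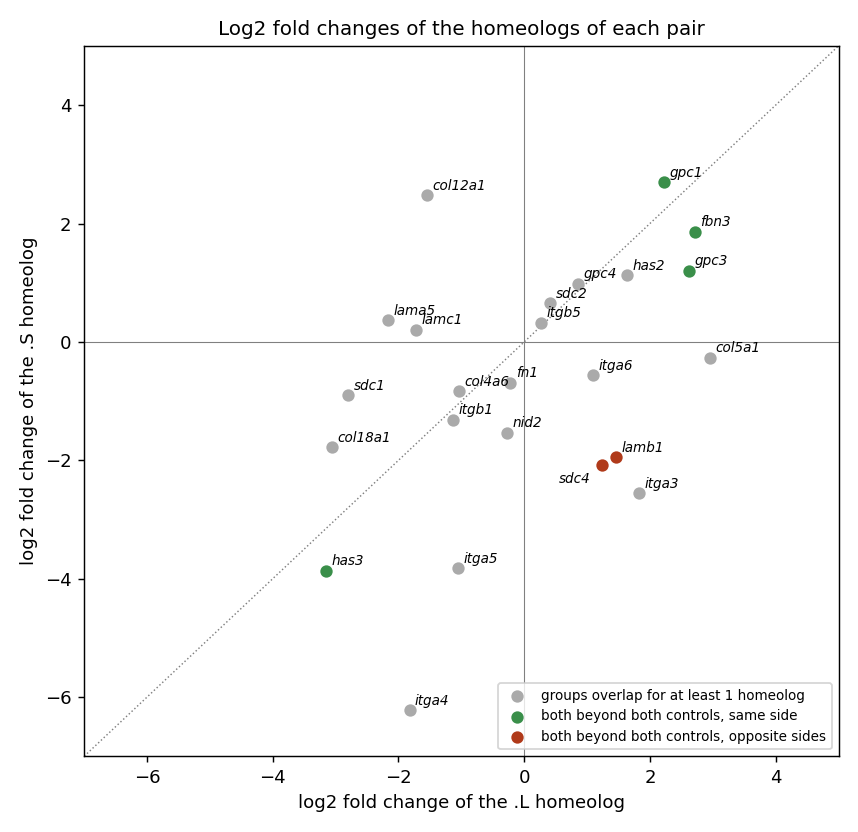
Log2 fold change of the .L homeolog (horizontal axis) against that of the .S homeolog (vertical axis) for the 24 pairs, with a dotted line where both are equal. The pairs lamb1 and sdc4, in red, lie together at the lower right, at 1.46 and -1.95 and at 1.24 and -2.07.

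The share of a pair's reads on .L does not depend on the scaling between libraries. For lamb1 it was 20.6% (95% Wilson interval 18.5 to 22.8) and 8.62% (7.85 to 9.46) in the controls, and 72.6% (71.2 to 74.0) and 51.1% (48.0 to 54.3) in the sox8 CRISPR libraries. For sdc4 it was 62.9% (60.8 to 64.9) and 64.4% (62.6 to 66.1) against 89.9% (89.1 to 90.7) and 97.2% (96.7 to 97.6). For itga3 it was 79.6% (70.8 to 86.3) and 55.8% (51.2 to 60.3) against 91.2% (89.5 to 92.6) and 99.7% (98.5 to 100). In all 3 pairs the .L share of each sox8 CRISPR library exceeded that of both controls, by more than the counting error, which is all these intervals cover. Of the 20 pairs with reads in every library, the .L share lay above both controls in 6, beside 19.1% of all such pairs, and below in 2, beside 19.8%. The other pairs above were itga5, itga6 and gpc3, with 82.6% and 92.4% against 97.3% and 100% for itga5, 55.1% and 49.5% against 85.6% and 67.9% for itga6, and 5.26% and 28.2% against 29.8% and 36.7% for gpc3. Those below were sdc1, at 84.5% and 87.9% against 41.7% and 79.9%, and sdc2, at 64.5% and 61.9% against 58.9% and 59.5%.

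By contrast, the .L share overlapped between the groups for fn1, at 55.7% and 48.2% against 49.9% and 69.1%, for itgb1, at 44.8% and 50.4% against 57.1% and 44.5%, and for gpc4, at 86.4% and 91.9% against 86.0% and 90.8%. The log2 ratio of .L to .S was tested with limma over all 5640 pairs. It called 0 of the 24 pairs, as it did of all pairs, and 3 of the 24 were under an unadjusted p of 0.05, beside 7.15% of all pairs. These were lamb1, with a change in the log2 ratio of 3.41 (standard error 0.70, adjusted p = 0.531 by limma), sdc4, with 3.31 (standard error 0.67, adjusted p = 0.531 by limma), and itga3, with 4.39 (standard error 1.68, adjusted p = 0.675 by limma). Without sox8 CRISPR replicate 1, 4 pairs passed, lamb1, sdc4, itga3 and lamc1, 16.7% against 13.0% of all pairs, in a fit where the lone sox8 CRISPR library was assumed to vary like the controls.

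**Figure D5:**
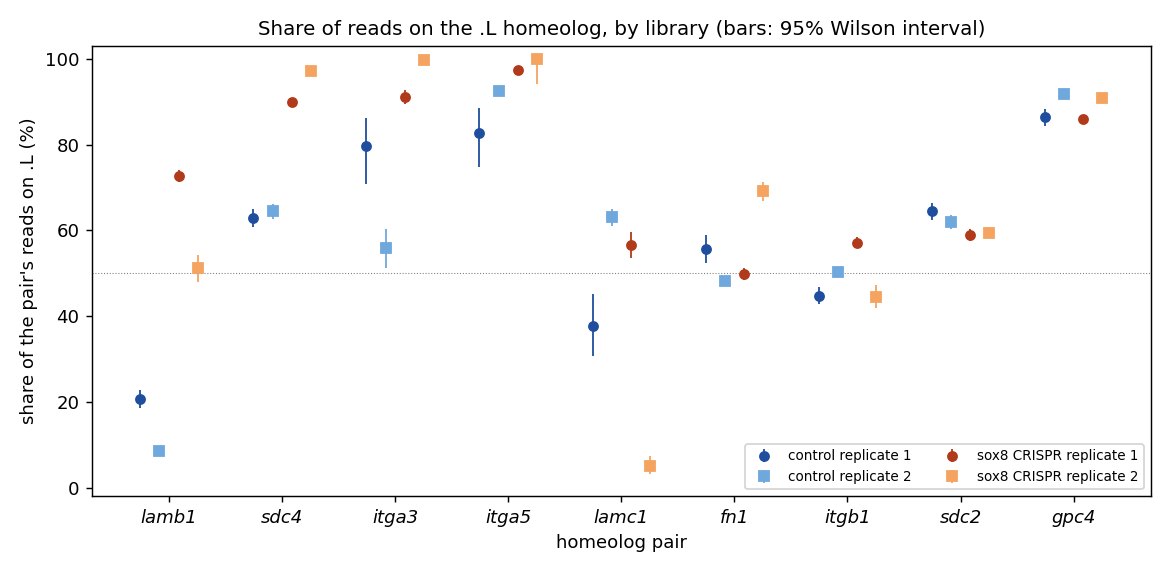
Share of each pair's reads that fell on the .L homeolog (vertical axis, percent) in each library for 9 pairs, with 95% Wilson intervals. In lamb1, sdc4, itga3 and itga5 both sox8 CRISPR libraries sit above both controls and in sdc2 slightly below, while the libraries of the groups interleave in fn1, itgb1, lamc1 and gpc4.

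Other genes of matrix assembly, turnover and attachment gave the surroundings of this set. They comprised 159 genes in lists drawn up by function, of which 31 lay above both controls, 19.5% against 17% of all genes, and 28 below, 17.6% against 19.1%. limma called 0, with 13 at an unadjusted p under 0.05, 8.18% against 6.79% of all genes. edgeR called 0 of them. DESeq2 called 5 of the 118 with an adjusted p, 4.24% against 2.33%, namely p4ha1.L, adamts1.S, adamts10.L, vcan.L and matn4.S. Of these, vcan.L passed the authors' filter on the mean only through its sox8 CRISPR reads. adamts10.L and matn4.S, at 0 in both sox8 CRISPR libraries, passed it only through the controls. The filter thus helped to fix the side of these genes. Of 32 genes for collagen processing, 7 lay above and 4 below. Of 34 matrix proteases and their inhibitors, 9 lay above and 10 below. Of 33 other matrix glycoproteins and proteoglycans, 3 lay above and 10 below, with a median log2 fold change of -0.98. Of 60 adaptors of adhesion sites, which link integrins to actin, 12 lay above and 4 below.

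Within these lists, adamts1.S, a protease of the versican-cleaving family, had the lowest adjusted p. It had 161 and 169 normalized counts in the controls, against 1279 and 1896 with the sox8 guides, far apart between the groups (log2 fold change 3.23 ± 0.73, limma adjusted p = 0.0727). Versican, the hyaluronan-binding proteoglycan encoded by vcan.L, had 6.25 and 6.36 against 94.9 and 176 (log2 fold change 4.16 ± 1.54, limma adjusted p = 0.569). p4ha1.L, a prolyl hydroxylase that stabilizes the collagen helix, had 93.7 and 167 against 4557 and 357, with sox8 CRISPR replicate 1 far above the rest (log2 fold change 3.34 ± 0.98, limma adjusted p = 0.277). Perlecan, the basement membrane proteoglycan encoded by hspg2.L, had 651 and 1858 against 256 and 244, lower in both (log2 fold change -2.13 ± 0.76, limma adjusted p = 0.529). fermt2.L, a kindlin that activates integrins, had 2272 and 1283 against 408 and 628 (log2 fold change -1.75 ± 0.72, limma adjusted p = 0.664). None of these 5 genes, picked after their values were seen, passed the test in limma, and DESeq2 called adamts1.S, vcan.L and p4ha1.L of them. For vcan.L the filter helped to fix the side, as stated above. The homeologs of adamts1.S, p4ha1.L and fermt2.L overlapped between the groups. adamts1.L had 159 and 529 against 723 and 254, p4ha1.S 21.9 and 31.0 against 70.0 and 19.3, and fermt2.S 412 and 310 against 150 and 726.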

How the data were processed

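Smart-seq2 libraries amplify polyadenylated RNA without molecular identifiers. The authors trimmed reads (cutadapt 4.4), removed ribosomal reads, aligned with HISAT2 2.2.1, counted per gene with featureCounts 2.0.6, dropped genes with a mean under 5 and divided by DESeq2 size factors. The deposited values are this signal, that is, normalized read counts. Whole reads were recovered for 100% of values (tolerance 0.001). Strand and multi-mapping settings are not given in the sources used here.

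The main test was limma 3.58.1 (R 4.3.3), two-sided and with an intensity trend, of log2(normalized count + 1) with Benjamini-Hochberg adjustment over all genes. edgeR 4.0.16 and DESeq2 1.42.0 on the recovered reads were alternatives, and the fits were tested on simulated data. Fits were repeated with a pseudocount of 0.5 or 5, with low values filtered, with TMM or quantile scaling, with a replicate block, without the intensity trend, with homeologs summed and with each library left out. With 2 libraries per group an exact permutation test cannot go below p = 0.333, and p-values measure only the spread between these samples, which may be technical.

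Genes named were the most abundant of each class, the 6 largest positive and 6 largest negative log2 fold changes among genes with a mean of 50 or more whose groups did not overlap, and genes with a textbook part in gastrulation or basement membranes. Others are named to give all values of a class or homeolog pair, and were chosen after their values were seen. The members and lists were chosen with earlier results of these data known. Coordinates are from RefSeq for v10.1, which matched 63 of the 76 genes. Levels per transcript length and sequences were not analysed here. Intervals cover counting error only.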

Additional observations from a re-analysis of the deposited data

How the results depend on the processing

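With 2 libraries per group, single libraries set many values. The number of the 76 genes called was 0 in limma and stayed 0 with other pseudocounts, filters, TMM scaling, no intensity trend, edgeR, summed homeologs, each library left out and the replicate block. It was 1 after quantile normalization, 2 with DESeq2 and 3 with a crossed replicate block, chosen after seeing the data, which called 776 genes in all. Same-numbered libraries tended to deviate in opposite directions (correlation -0.22 across all genes). The labels do not say whether they were paired, and a single correlation cannot decide it. Over all genes limma called 72, a pseudocount of 5 gave 153, a filter of 10 or more in at least 2 libraries 25, quantile normalization 199, edgeR 109, DESeq2 423, no intensity trend 0, the replicate block 86 and each library left out 0. Genes above both controls numbered 22 to 37 with a library left out, where fewer samples allow more genes to pass, and genes below both 17 to 30, or 8 with homeologs summed. The median log2 fold change of the set ran from -0.58 without control replicate 1 to 0.48 without sox8 CRISPR replicate 2, and that of all genes was 0.07 with edgeR and 0.01 with DESeq2.

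Several of the 40 genes named by rule or singled out were chosen for having no overlap of the groups. Such genes cannot reverse with a library left out, which raises the number that kept direction. Under 551 alternatives of the 40 genes, 522 kept direction and side of the threshold. A further 3 passed it (itga4.S with DESeq2, sdc1.L with DESeq2 and quantile normalization) and 26 reversed, in 13 genes. For 10 of these only a left-out library did so, with ranges of -2.17 to 0.95 for col13a1.L, -3.62 to 0.17 for lamc1.L, -1.02 to 2.66 for nid1.S, -1.12 to 0.56 for nid2.L, -1.39 to 0.95 for fn1.L, -2.07 to 0.70 for fn1.S, -2.98 to 0.89 for itga5.L, -1.43 to 0.25 for itgav.L, -0.19 to 1.01 for sdc2.L and -2.19 to 1.19 for has1.S. The others were col4a1.S (0.071 with a pseudocount of 5, 0.11 with quantile normalization, 0.77 with edgeR, 0.76 with DESeq2, -2.91 to 1.88 with a library left out), col26a1.L (0.062 with edgeR, -3.60 to 1.00) and lamc1.S (-0.018 with edgeR, -0.026 with DESeq2, -0.73 to 1.15). The cause was not tested. Over all 76 genes, the log2 fold change of 34 took both signs with a library left out, among them 21 outside those 40, such as itgb5.L (-0.79 to 1.33), itgb5.S (-1.58 to 2.23), itgb6.L (-0.35 to 1.52), sdc1.S (-2.13 to 0.33) and lamb3.S (-1.08 to 4.87). Of 203 values of the 17 class medians under alternatives, 164 moved by less than the spread between replicates and 39 by more. With 4 of 24 homeolog pairs called without sox8 CRISPR replicate 1, and 0 in the full fit, those ratios rest on few libraries.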
